A study of Mus musculus with 3 samples.

Results

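The genes described here are 37 interferon-stimulated genes, chosen as a fixed list of symbols and looked up among the 28001 features of a single-cell RNA count matrix from the mouse nucleus accumbens. All 37 were found. The question was in which cells and in which library these RNAs were present, and whether they differed among the neuron types of the accumbens. The series holds 3 libraries of 1 group: Thy1::ChR2 mice, a strain in which the Thy1 promoter drives channelrhodopsin in neurons, whose accumbens cells carried FLiCRE labelling made while ChR2 was stimulated, taken from a coronal dissection of 400 um. FLiCRE is a reporter system in which the protease TEV releases the transcription factor tTA when light and intracellular calcium coincide. Every library is therefore stimulated and labelled, and no unstimulated or unlabelled animal is among the samples used here. The labels do not say whether the libraries come from separate animals, so the spread between them may be partly technical. The libraries are called 1, 2 and 3 after the suffix of their cell barcodes, which nothing ties to a numbered replicate.

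Interferons are secreted alarm proteins that bind receptors on nearly all cells. Type I interferon signals through JAK1 and TYK2 to the complex ISGF3, which includes STAT2 and IRF9 and binds the interferon-stimulated response element (ISRE) in gene promoters. Interferon gamma acts mainly at the GAS element, and many guanylate-binding proteins and immunity-related GTPases answer to both. In the brain, microglia, astrocytes, oligodendrocytes and the vessel wall are known responders, and neurons can respond as well.

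The promoters of several listed genes carry the ISRE core, and the windows below show it in 6 genes of the neuron and GTPase results, chosen among those with a match. The core searched was GAAA, any 2 bases and GAAA again, on both strands, in the 250 bases before the gene start, with overlapping matches allowed. RefSeq promoters of GRCm38.p6 matched 29 of the 37 genes, and 14 of these (48.3%) held the core, against 3.46% of 27025 genes with a promoter. The GAS pattern TTCNNNGAA was found in 6 of the 29 (20.7%), against 8.13% of all. Oasl2 and Xaf1, which were lower in both Drd1-type and Adora2a-type than in other neurons, held neither pattern. These are matches of letters and say nothing of binding in these cells. Capitals mark the matched core, and TTTC forms are the core read on the opposite strand. Isg15 is shown for the ubiquitin-like modifier that was higher in Drd1-type than in Adora2a-type neurons (chr4:156200855-156200916, minus strand, 3 overlapping matches). Ifit1 is shown for an RNA-binding effector beside it in that comparison (chr19:34640765-34640833, plus strand). Ifit3 (chr19:34583353-34583436) and its neighbour Ifit3b (chr19:34607749-34607832), both on the plus strand, are shown because their windows are letter for letter the same. Bst2 (chr8:71537567-71537622, minus strand) encodes tetherin, and Igtp (chr11:58199502-58199551, plus strand) an immunity-related GTPase.
Isg15: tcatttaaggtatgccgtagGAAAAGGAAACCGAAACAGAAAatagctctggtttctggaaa
Ifit1: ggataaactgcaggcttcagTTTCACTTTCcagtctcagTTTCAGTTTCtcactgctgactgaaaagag
Ifit3: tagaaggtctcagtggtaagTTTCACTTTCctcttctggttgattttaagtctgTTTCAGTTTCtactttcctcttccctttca
Ifit3b: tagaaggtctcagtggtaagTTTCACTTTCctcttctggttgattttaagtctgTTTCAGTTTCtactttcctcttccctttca
Bst2: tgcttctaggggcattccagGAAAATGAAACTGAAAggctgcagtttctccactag
Igtp: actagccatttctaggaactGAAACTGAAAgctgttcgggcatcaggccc

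After filtering, libraries 1 to 3 held 2306, 5783 and 1834 cells, of which 1971, 5165 and 1689 were placed in a class by their marker genes. The deposited cells of libraries 1 to 3 had a median of 894, 2019 and 2330 UMIs, UMIs being the molecular tags by which RNA molecules rather than amplified copies are counted. Drd1 and Adora2a are among the markers that set the neuron gates, so their levels describe the gates and are no independent check. Drd1 stood at 965, 496 and 621 CPM (the UMIs of a gene as counts per 1e+06 UMIs of the class) in Drd1-type neurons and at 3.67, 17.8 and 11.04 CPM in Adora2a-type neurons. Adora2a stood at 1605, 657 and 692 CPM in Adora2a-type neurons and at 4.12, 19.7 and 8.02 CPM in Drd1-type neurons. Other neurons are those with fewer than 2 markers of either list, so they can also hold projection neurons of low depth, and their Drd1 level was 117.5, 39.9 and 52.2 CPM. The macrophage gate uses MHC class II genes, which interferon gamma can induce, so that class was partly chosen by genes of a related response.

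Among the classes with at least 10 cells in every library, endothelial cells carried the most interferon-stimulated RNA and neurons the least. The 37 genes together made up 6732, 10221 and 11852 CPM in endothelial cells of libraries 1 to 3, a mean of 9602 ± 2615 (SD, n = 3 libraries). Mural cells, which wrap vessels, followed with 5074, 7313 and 10066 CPM. Macrophages had 3580, 6032 and 7451 CPM. The ranges of these 3 classes over libraries overlapped one another. Microglia, the resident immune cells, had 3615, 5785 and 5053 CPM. Astrocytes had 2504, 6159 and 4518 CPM, and oligodendrocytes 1597, 3987 and 2550 CPM. Neurons of all types had 192, 780 and 426 CPM, a mean of 466 ± 296 (SD, n = 3 libraries), and in each library their value was below that of each glial, immune and vascular class shown in the plot of summed levels. T cells (24, 47 and 10 cells) and oligodendrocyte precursors (13, 53 and 30 cells) rest on few cells. Fibroblasts (15, 30 and 5 cells) had 4800, 10371 and 17939 CPM, above endothelial cells in libraries 2 and 3. With 5 cells in library 3, fibroblasts are not ranked.

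**Figure D1:**
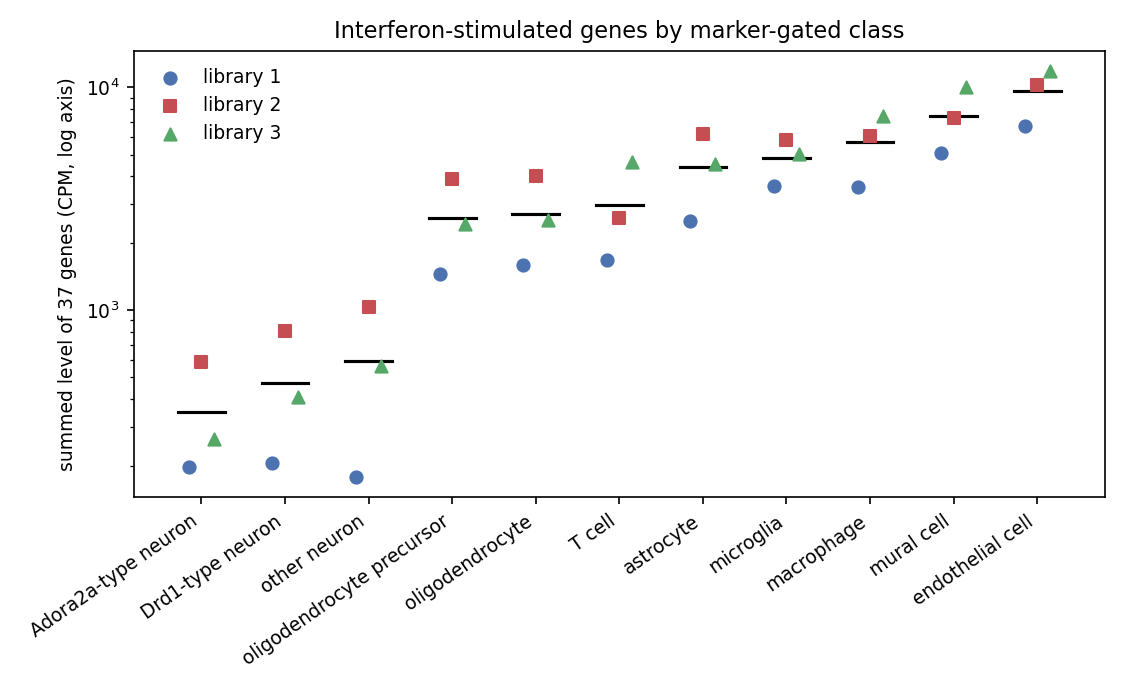
Summed level of the 37 genes (CPM, log axis) in each marker-gated class, with 1 point per library and a bar at the mean of the 3 libraries. All neuron points lie at or below 1039 CPM, and the lowest point of any other class is 1451 CPM, in oligodendrocyte precursors of library 1.

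A single membrane protein gene took a large part of the vascular sum. Ifitm3 encodes a protein that blocks virus entry at endosomes and is expressed in vessels also at rest. It stood at 2778, 3853 and 4582 CPM in endothelial cells, against 15.4, 117 and 39.1 CPM in neurons of the same libraries, and the ranges did not overlap. Without Ifitm3, the mean sum was 5864 CPM in endothelial cells and 3506 CPM in mural cells, a setting added after the values were seen. Highest mean levels were compared among the classes with at least 10 cells in every library, which leaves out fibroblasts. Of the 37 genes, 17 had their highest mean level in endothelial cells, 5 each in macrophages and microglia, 4 in astrocytes, 3 in T cells, 2 in oligodendrocyte precursors and 1 in mural cells. The 4 genes led by astrocytes were Irgm1, Gbp2, Igtp and Ifit3.

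**Figure D2:**
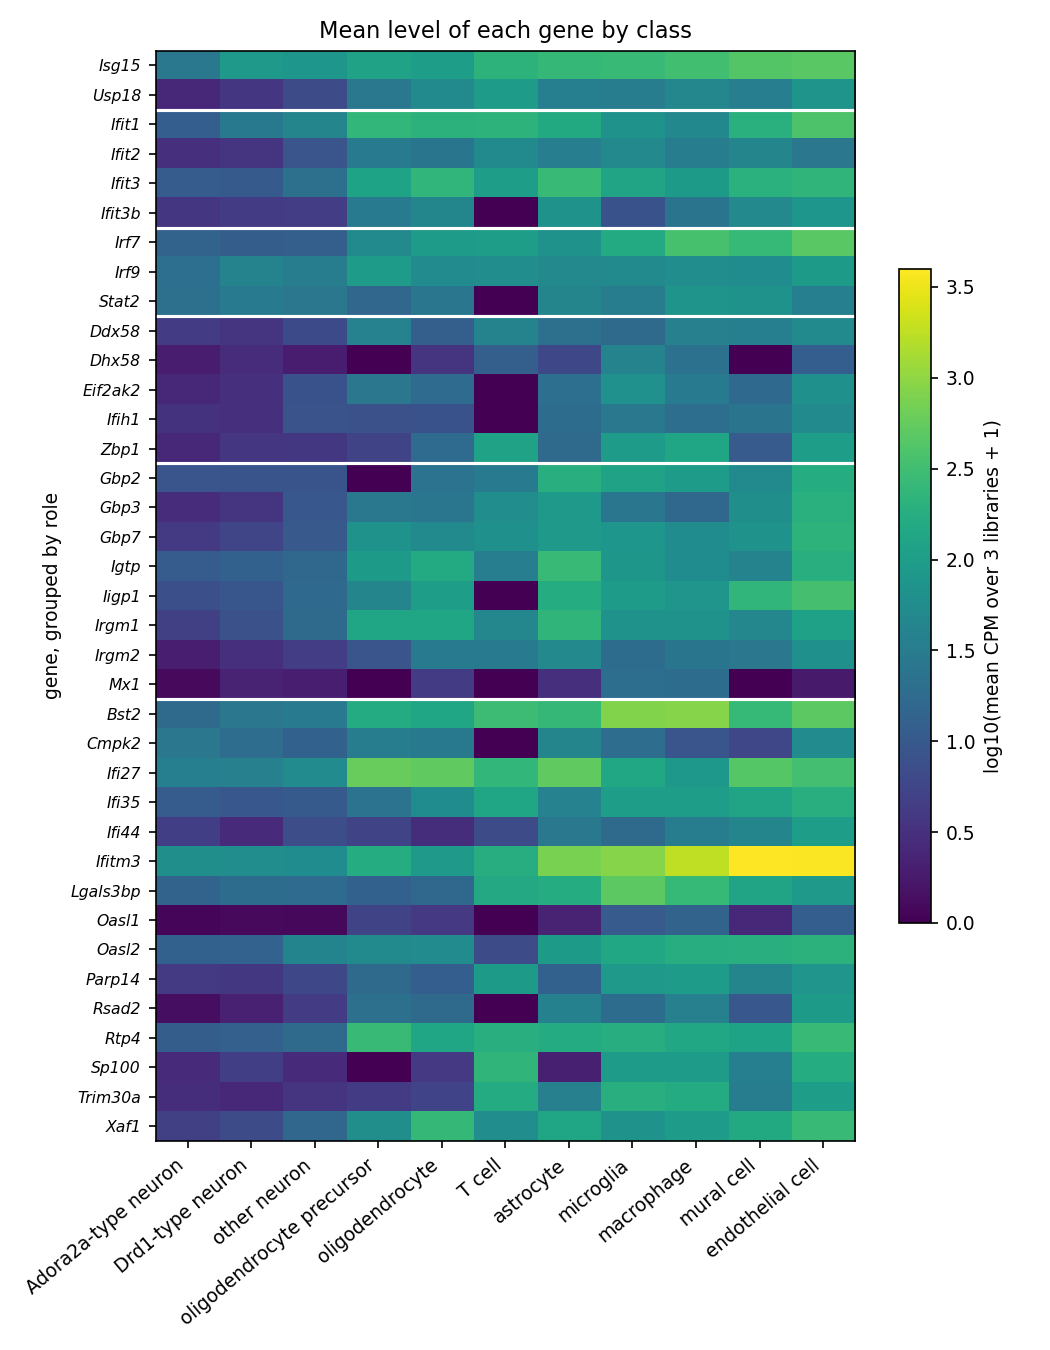
Mean level of each of the 37 genes over 3 libraries, as log10 of CPM plus 1, by class, with white lines between the roles named in the text. Ifitm3 in mural and endothelial cells (means of 3978 and 3737 CPM) are the brightest cells, and the 3 neuron columns are dark in nearly all rows.

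Each glial, immune and vascular class was then compared with neurons of the same library (edgeR's quasi-likelihood test on summed UMI counts, Benjamini-Hochberg adjustment over all genes, called under 0.05). In astrocytes, 34 of the 37 genes were higher than in neurons and 0 lower, where 29.9% of all genes tested were higher. The other 3 were Sp100, which was tested and not called (log2 difference -0.50), and Oasl1 and Mx1, which were too low to be tested. The median log2 difference over all 37, without a filter on low counts, was 3.30, against 0.00 over all genes tested. A total of 33 of the 37 were higher in all 3 libraries. The immunity-related and guanylate-binding GTPases, which attack membranes around intracellular pathogens, had the largest differences here. Gbp2 stood at 46.8, 247 and 253 CPM in astrocytes and at 1.10, 17.1 and 3.88 CPM in neurons (log2 difference 5.26 ± 0.75 SE, adjusted p = 4.38e-05 by edgeR). Irgm1 stood at 176, 366 and 124 CPM against 5.51, 14.4 and 7.75 CPM (log2 difference 5.08 ± 0.34 SE, adjusted p = 2.50e-13 by edgeR). For both genes the lowest astrocyte library lay above the highest neuron library.

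In oligodendrocytes, the myelin-forming cells, 30 of the 37 genes were higher than in neurons and 0 lower, where 30.5% of all genes tested were higher. The median over all 37 without a filter was 2.88, against 0.07 over all genes tested. Xaf1, a gene linked to cell death, led with 227, 288 and 229 CPM against 2.20, 15.6 and 4.85 CPM in neurons (log2 difference 5.47 ± 0.35 SE, adjusted p = 1.12e-13 by edgeR). Ifi27, a mitochondrial and nuclear membrane protein gene, stood at 452, 575 and 530 CPM against 33.1, 71.1 and 20.4 CPM (log2 difference 4.37 ± 0.35 SE, adjusted p = 9.04e-11 by edgeR). Neither gene overlapped between the classes. Ifit3 followed (log2 difference 4.65), and 14.9% of the 50-base stretches in the last 500 bases of its transcript also occur in Ifit3b, so how reads fell between these neighbours is uncertain. Tested and not called were Sp100, Ifi44, Stat2, Dhx58 and Lgals3bp. Isg15 was closer to neurons here than in any other tested class, at 67.9, 163 and 66.3 CPM against 8.82, 123 and 61.7 CPM (log2 difference 1.32 ± 0.50 SE, adjusted p = 0.0355 by edgeR), and its ranges overlapped.

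Trim30a had the largest difference from neurons in both microglia and macrophages. In microglia 33 and in macrophages 34 of the 37 genes were higher than in neurons and 0 lower, where 24.5% and 23.6% of all genes tested were higher. The median over all 37 without a filter was 3.43 and 3.61, while the median of all genes tested was -0.19 and -0.20, a shift that applies to every value of these 2 classes. Trim30a, a brake on inflammatory signalling, stood at 66.1, 280 and 209 CPM in microglia and at 84.5, 223 and 187 CPM in macrophages, against 0, 3.63 and 1.94 CPM in neurons. Its log2 differences were 6.82 ± 0.37 and 6.74 ± 0.38 (SE, adjusted p = 2.30e-15 and 1.79e-14 by edgeR), though the neuron value of library 1 rests on 0 UMIs. Bst2, which ties budding virus to the cell surface, stood at 804, 668 and 1032 CPM in microglia and 1038, 612 and 1031 CPM in macrophages, against 7.71, 38.4 and 22.9 CPM in neurons. The lowest value in either class was far above the highest in neurons. Cmpk2, which lies beside Rsad2 and makes a nucleotide, was not called in either class (log2 differences 0.83 and -0.17).

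In endothelial cells 34 of the 37 genes were higher than in neurons and 0 lower, where 27.7% of all genes tested were higher. The median over all 37 without a filter was 4.45, against -0.01 over all genes tested, and 36 of 37 were higher in all 3 libraries. Sp100, a nuclear body protein gene that was not called in astrocytes or oligodendrocytes, stood at 126, 166 and 217 CPM against 3.31, 2.67 and 1.29 CPM in neurons (log2 difference 6.70 ± 0.40 SE, adjusted p = 2.11e-15 by edgeR). Irf7, the factor that amplifies interferon production, stood at 179, 439 and 795 CPM against 3.31, 16.6 and 13.9 CPM (log2 difference 5.66 ± 0.34 SE, adjusted p = 2.06e-14 by edgeR). Both ranges were far apart. Stat2, a subunit of ISGF3, missed the threshold in endothelial cells (log2 difference 0.89, adjusted p = 0.0504 by edgeR) and in microglia (1.06, adjusted p = 0.0531 by edgeR). In neurons it varied little, at 28.7, 22.7 and 25.2 CPM. Irf9, the DNA-binding subunit, stood at 15.4, 36.2 and 37.5 CPM in neurons, lowest in library 1, and its gene overlaps Rnf31 on the same strand, so its values are uncertain.

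In each class of the plot of summed levels the summed level was lowest in library 1. Which library was highest depended on the class. In all neurons, 29 of the 37 genes had their highest level in library 2, 5 in library 3 and 3 in library 1. In oligodendrocytes the counts were 32, 5 and 0, and in microglia 26, 8 and 3. In endothelial cells library 3 led instead, with 20 genes against 14 in library 2 and 3 in library 1, and in astrocytes the counts for libraries 2, 3 and 1 were 16, 18 and 3. The share of all genes highest in each library was not computed, so these counts do not set the 37 genes apart from others. With 1 group there is no test between libraries, and the tissue and the preparation of a library cannot be told apart from its levels. With each cell thinned to 1000 UMIs, neurons had 194, 773 and 402 CPM. Thinning keeps the share of UMIs on average, so only the dropped cells with fewer UMIs could move these sums. Their closeness to the unthinned values therefore does not test the part of depth in the difference between libraries.

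The roles of the genes separated the libraries further. The 8 interferon-inducible GTPase genes together stood at 257, 1037 and 264 CPM in oligodendrocytes, at 220, 977 and 321 CPM in microglia and at 145, 893 and 187 CPM in macrophages. In these classes library 2 stood apart from the other libraries, which lay close together. The 4 IFIT genes, whose products bind foreign RNA, stood at 193, 718 and 595 CPM in oligodendrocytes, at 44.1, 374 and 321 CPM in microglia and at 42.3, 237 and 293 CPM in macrophages. Here libraries 2 and 3 lay together and library 1 was low. In endothelial cells the GTPase sum was 837, 1470 and 1515 CPM and the IFIT sum 431, 841 and 895 CPM, so libraries 2 and 3 were alike for both. Iigp1, a GTPase that vesiculates pathogen vacuoles, shows the pattern in a single gene, chosen after its values were seen: 11.02, 261 and 20.9 CPM in microglia and 6.04, 183 and 35.1 CPM in macrophages. Gbp2 stood at 2.12, 62.1 and 3.09 CPM in oligodendrocytes. Igtp and Irgm2 overlap on the same strand, so their separate values are uncertain.

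**Figure D3:**
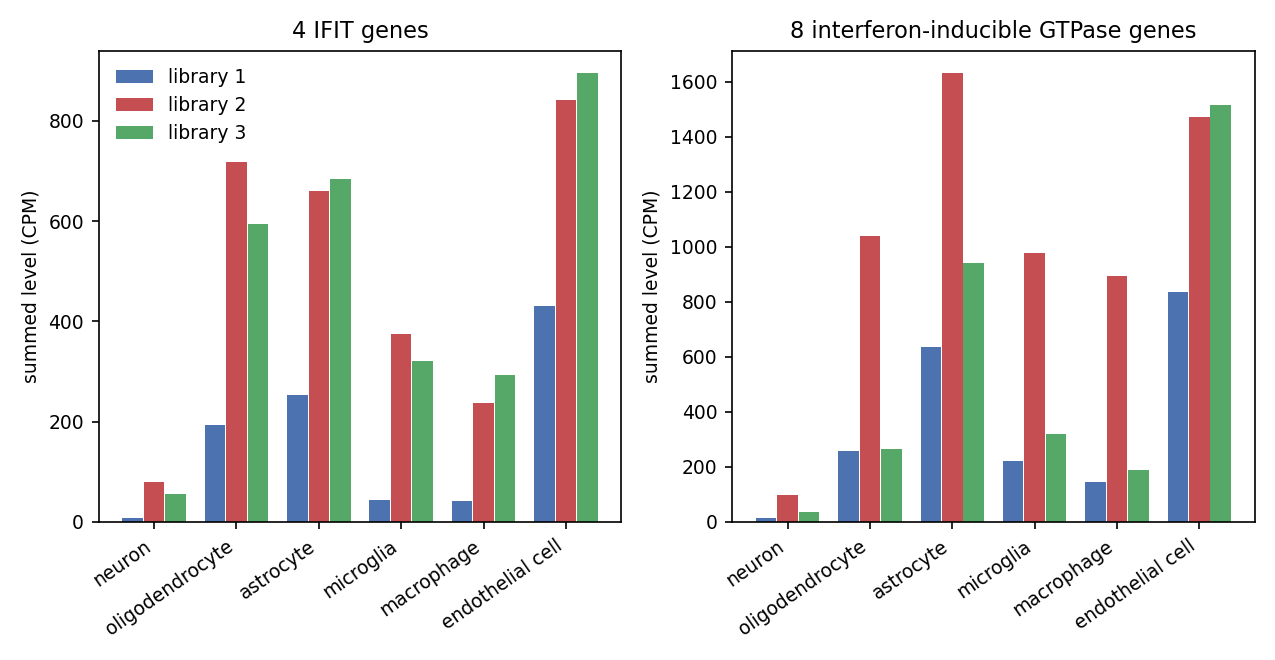
Summed level (CPM) of the 4 IFIT genes and of the 8 interferon-inducible GTPase genes in 6 classes, with 1 bar per library. The GTPase bar of library 2 in oligodendrocytes, microglia and macrophages (1037, 977 and 893 CPM) stands above bars of 321 CPM or less, while the IFIT bars of libraries 2 and 3 are of like height.

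Neurons of all 3 types held little of these RNAs, and they differed among themselves. Over all neurons, the 12 genes with the highest mean level were Isg15 (64.5 CPM), Ifitm3 (57.3), Ifi27 (41.5), Irf9, Ifit1, Stat2, Bst2, Oasl2, Cmpk2, Lgals3bp, Ifit3 and Rtp4 (11.98). These are counts of 3′ ends, so no length enters them. Drd1-type neurons, the projection neurons of the direct pathway, had a summed level of 206, 807 and 408 CPM in libraries 1 to 3, from 197, 1489 and 313 cells. Adora2a-type neurons, the projection neurons of the indirect pathway, had 198, 587 and 264 CPM, from 231, 848 and 263 cells. Other neurons had 179, 1039 and 565 CPM, from 325, 794 and 273 cells. Drd1-type neurons were thus above Adora2a-type neurons in libraries 2 and 3, where other neurons were highest. In library 1 the values of Drd1-type, Adora2a-type and other neurons fell in that order. They rest on only 50, 54 and 70 UMIs of the listed genes and lie close together, so the order in library 1 is uncertain. The ranges over libraries overlapped widely, since the difference between libraries was larger than that between types. When each cell was thinned to 1000 UMIs, the sums were 256, 807 and 373 CPM in Drd1-type, 174, 589 and 271 CPM in Adora2a-type and 165, 943 and 590 CPM in other neurons, in the same order within each library. Since thinning keeps the share of UMIs on average, this order is no separate check. Neurons with glutamatergic markers (43, 123 and 67 cells), taken from all gated neurons whatever their type, had 127, 1118 and 552 CPM.

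Isg15 set Drd1-type apart from Adora2a-type neurons. Its level was 20.6, 155 and 81.1 CPM in Drd1-type neurons, from 5, 691 and 91 UMIs. In Adora2a-type neurons it was 0, 60.2 and 19.9 CPM, from 0, 159 and 18 UMIs, where 0 UMIs allow up to 11.02 CPM in library 1 (3 counts of the total, counting error only). Drd1-type neurons were higher in each library, though the ranges over libraries overlapped. With the library as block, the level was 2.93-fold higher (log2 difference 1.55 ± 0.19 SE, adjusted p = 2.53e-05 by edgeR). Ifit1 was 3.24-fold higher (log2 difference 1.69 ± 0.30 SE, adjusted p = 0.00206 by edgeR), from 0, 52.0 and 31.2 CPM in Drd1-type against 7.35, 14.0 and 11.04 CPM in Adora2a-type neurons. It was higher in libraries 2 and 3 but not in library 1, where only 0 and 2 UMIs were counted. Without library 2 the adjusted p of Ifit1 was 0.994 and with DESeq2 0.512, and without the library block both genes missed the threshold (adjusted p = 0.99996 by edgeR). These 2 were the only genes of the 37 called higher, and 0 were lower, where 0.924% of all genes tested were called in either direction. Over all 37, 7 were higher in Drd1-type neurons in all 3 libraries and 0 were lower in all 3. Such counts of direction were made for the 37 genes only. Without the share over all genes, they do not set the list apart. Of the 37, 18 were too low in neurons to be tested, among them all 5 nucleic-acid sensors (Ddx58, Ifih1, Dhx58, Zbp1 and Eif2ak2).

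Other neurons stood above both projection neuron types for Oasl2 and Xaf1, and above Adora2a-type neurons for further effectors. Oasl2, a relative of the oligoadenylate synthetases, stood at 7.67, 72.3 and 41.3 CPM in other neurons, at 0, 24.6 and 12.5 CPM in Drd1-type and at 7.35, 15.5 and 13.2 CPM in Adora2a-type neurons. Other neurons were highest in each library, by a small margin in library 1. The log2 difference of Oasl2 was -1.58 ± 0.24 SE for Drd1-type over other neurons (adjusted p = 4.61e-05 by edgeR) and -1.99 ± 0.27 SE for Adora2a-type over other neurons (adjusted p = 1.05e-05 by edgeR). Against other neurons, 3 of the 37 genes were lower in Drd1-type neurons (Oasl2, Xaf1 and Ifit3) and 0 higher. Of all genes tested, 13.4% were called in either direction and 7.45% lower. Of the 37, 19 could be tested in this and the next comparison, so a count of 3 rests on few genes. In Adora2a-type neurons 7 were lower (those named next with Oasl2) and 0 higher, where 14.6% were called in either direction and 8.14% lower. Besides Oasl2 these were Irgm1, Xaf1 and Isg15, lower in all 3 libraries (log2 differences -1.92, -1.62 and -1.42), and Ifit1, Iigp1 and Bst2, which were lower in only 2 libraries (-2.26, -1.77 and -0.93). Isg15 stood at 7.67, 146 and 75.8 CPM in other neurons, near its level in Drd1-type neurons. Irf7 and Ifitm3 showed no such order: Irf7 was 4.12, 16.6 and 10.7 CPM in Drd1-type, 3.67, 17.4 and 17.7 CPM in Adora2a-type and 2.56, 17.0 and 13.8 CPM in other neurons.

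Not all of these calls held under other settings. Without the library block every one was lost (adjusted p of Oasl2 = 0.379 for Drd1-type and 0.258 for Adora2a-type over other neurons by edgeR). With DESeq2, Oasl2 was still called against other neurons in Drd1-type neurons, and Oasl2, Isg15 and Ifit1 in Adora2a-type neurons. Xaf1, Ifit3, Irgm1, Iigp1 and Bst2 were not called by DESeq2 (adjusted p from 0.0666 for Irgm1 to 0.397 for Iigp1). Without library 2 only 9 of the 37 genes were high enough to be tested, and Oasl2, Xaf1, Ifit3, Irgm1 and Iigp1 were not among them. Of the genes still tested, Isg15 and Ifit1 stayed lower in Adora2a-type than in other neurons (log2 differences -1.95 and -1.81, adjusted p = 0.00284 and 0.0366 by edgeR), and Bst2 missed the threshold (-0.82, adjusted p = 0.409 by edgeR).

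**Figure D4:**
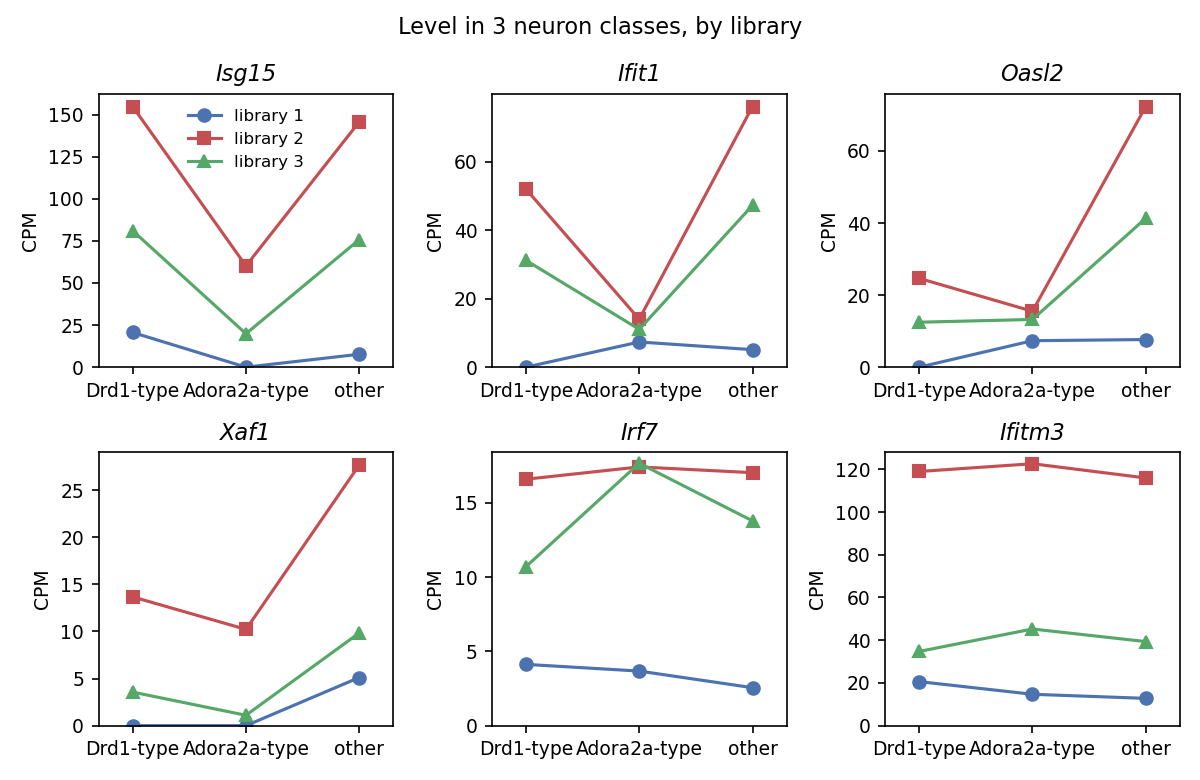
Level (CPM) of 6 of the genes in Drd1-type, Adora2a-type and other neurons, with 1 line per library that joins the classes of that library. For Isg15 and Ifit1 the Adora2a-type point lies lowest in libraries 2 and 3, while for Irf7 and Ifitm3 it lies above the point of other neurons.

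At like depth, cells with several of these RNAs were common outside neurons and rare in them. Cells were thinned to 1000 UMIs each, and cells with fewer were dropped: 76, 52 and 13 Drd1-type, 93, 23 and 12 Adora2a-type and 161, 123 and 46 other neurons of libraries 1 to 3. Cells with 3 or more UMIs of the 37 genes were then counted. Among Drd1-type neurons they made up 0% (upper limit 3.003), 7.52% (95% Clopper-Pearson interval 6.21 to 9.002) and 1.33% (0.364 to 3.38) in libraries 1 to 3. Among Adora2a-type neurons they made up 0% (2.64), 2.55% (1.58 to 3.86) and 1.59% (0.435 to 4.03). Among other neurons they made up 0% (2.22), 9.24% (7.16 to 11.7) and 6.17% (3.41 to 10.1). The interval of Adora2a-type neurons lay below that of both other types in library 2, and in library 3 it overlapped both. Astrocytes gave 34.5%, 69.4% and 54.7%, and endothelial cells 93.2%, 95.9% and 100%. The thinned neuron with the highest number had 15 among its 1000 UMIs. All intervals cover counting error only.

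**Figure D5:**
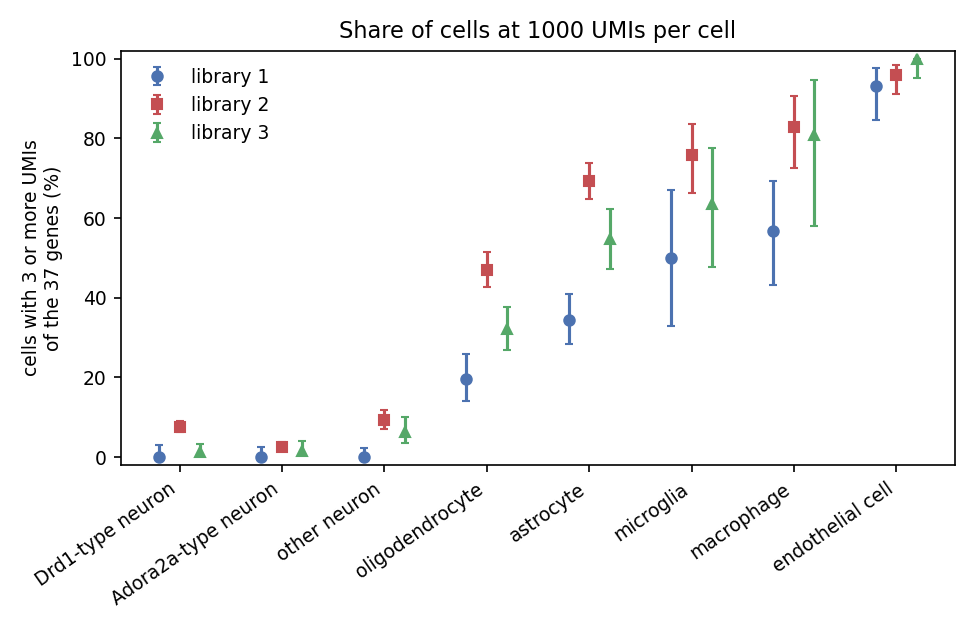
Share of cells (%) with 3 or more UMIs of the 37 genes after each cell was thinned to 1000 UMIs, by class and library, with exact 95% Clopper-Pearson intervals. Neuron points lie between 0% and 9.24%, and endothelial points at or above 93.2%.

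Droplets also catch RNA freed from other cells, so the level in neurons was set against that of markers neurons should lack. The 6 endothelial markers in neurons of libraries 1 to 3 reached 0.398%, 0.671% and 0.293% of their level in endothelial cells, while the 37 genes reached 2.85%, 7.64% and 3.60%. Isg15 reached 2.80%, 22.1% and 11.2%, and Ifitm3 0.555%, 3.05% and 0.853%. Against oligodendrocytes, the markers reached 0.910%, 1.65% and 1.12% and the 37 genes 12.005%, 19.6% and 16.7%. As a sum, the listed genes were above the marker share of each class in every library. Against endothelial cells, Isg15 lay further above that share than Ifitm3. The same markers set the gates, which keep cells rich in them out of the neuron class, so these shares are low in part by design. Each class was also set against neurons alone, although free RNA of several classes can add up. How much of the neuron level is free RNA was not tested. In library 2, where the interferon genes were highest in neurons, all of these marker shares were highest too.

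Marker levels of other cells also differed among the neuron types. The 7 astrocyte markers stood at 368, 501 and 397 CPM in other neurons, above Drd1-type (165, 373 and 266 CPM) and Adora2a-type neurons (154, 376 and 256 CPM) in each library, in the direction of Oasl2 and Xaf1. The 6 oligodendrocyte markers were higher in Adora2a-type (184, 228 and 195 CPM) than in Drd1-type neurons (124, 214 and 168 CPM), opposite to Isg15. The 6 microglial markers stood at 12.4, 56.9 and 26.7 CPM in Drd1-type, 33.1, 54.9 and 28.7 CPM in Adora2a-type and 23.0, 76.6 and 28.5 CPM in other neurons. The 8 macrophage markers stood at 268, 298 and 39.2 CPM in Drd1-type and 162, 207 and 92.7 CPM in Adora2a-type neurons. The 6 endothelial markers stood at 74.2, 127 and 48.1 CPM in Drd1-type, 47.8, 108 and 65.1 CPM in Adora2a-type and 35.8, 118 and 66.9 CPM in other neurons. The last 2 lists were thus higher in Drd1-type than in Adora2a-type neurons in libraries 1 and 2 and lower in library 3. The part of these RNAs in the neuron differences was not tested.

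FLiCRE transcripts also differed between Drd1-type and Adora2a-type neurons in the direction of Isg15. TEV stood at 429, 546 and 899.9 CPM in Drd1-type neurons, at 202, 261 and 421 CPM in Adora2a-type and at 325, 230 and 344 CPM in other neurons, so it was highest in Drd1-type neurons in each library. In other neurons it did not follow Isg15, since TEV lay below its Adora2a-type level in libraries 2 and 3 where Isg15 lay above. Neurons with a UMI of TEV or tTA had 186, 830 and 428 CPM of the 37 genes, and neurons without one 195, 713 and 423 CPM. Of the 37 genes, only Isg15 was called between them (1 higher, 0 lower, where 0.263% of all genes tested were called in either direction). It stood at 12.9, 147 and 68.0 CPM against 6.71, 90.9 and 48.9 CPM (log2 difference 0.64 ± 0.14 SE, adjusted p = 0.0101 by edgeR). Construct-bearing neurons were also deeper, with a median of 1258, 3019 and 3193 against 1002, 2131 and 2149 UMIs, and after thinning the call was lost (0.53 ± 0.19 SE, adjusted p = 0.722 by edgeR). It was also lost without library 2 (0.48, adjusted p = 0.849 by edgeR) and without library 3 (0.71, adjusted p = 0.873 by edgeR). Among neurons with no UMI of mCherry, TEV or tTA, Isg15 had a log2 difference of 1.07 ± 0.31 SE between Drd1-type and Adora2a-type neurons, with an adjusted p of 0.125 by edgeR. The part of the construct, of cell type and of depth in the Isg15 difference was not tested further.

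The ligands themselves were barely seen. Of 21 interferon genes, 19 had 0 UMIs in all analysed cells, Ifna2 had 1 and Ifng had 9. Ifng, the product of activated T cells and natural killer cells, stood at 102.9, 33.9 and 68.1 CPM in T cells, from 3, 2 and 1 UMIs, and had 0 UMIs in neurons. The receptor chains were all present in neurons except Ifnlr1, the lambda receptor chain, which was near 0 everywhere. Ifnar1, a chain of the type I receptor, stood at 28.7, 25.01 and 26.2 CPM in neurons and at 213, 132.5 and 172 CPM in endothelial cells (log2 difference 3.12 ± 0.33 SE, adjusted p = 2.81e-09 by edgeR). Ifngr1, which binds interferon gamma, stood at 13.2, 12.5 and 11.6 CPM in neurons and at 287, 294 and 369 CPM in microglia (log2 difference 5.23 ± 0.29 SE, adjusted p = 8.23e-15 by edgeR). Neither receptor gene overlapped between those classes. Ifnar1 was not called in astrocytes or oligodendrocytes (log2 differences -0.29 and -0.48), although 34 and 30 of the 37 interferon-stimulated genes were higher there. Of the other chains, Ifnar2 was higher than in neurons in all 5 classes (log2 differences from 0.95 to 3.87), as was Il10rb (from 1.34 to 6.55). Ifngr2 was higher in microglia (2.82) and macrophages (2.71) and lower in oligodendrocytes (-0.88). None of the 4 receptor chains that could be tested was called among the 3 neuron types.

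Further genes of the pathway, from a list of other interferon-stimulated genes beyond the 37, followed the same classes. Of 69 listed, 55 could be tested against neurons: 43 were higher in astrocytes, 33 in oligodendrocytes (and 1 lower), 54 in microglia, 54 in macrophages and 50 in endothelial cells. Of all genes tested, 29.9%, 30.5%, 24.5%, 23.6% and 27.7% were higher in these classes, in that order. Among neuron types 19 could be tested, of which 0 were called between Drd1-type and Adora2a-type neurons by edgeR. Against other neurons, 4 were lower in Drd1-type and 5 in Adora2a-type neurons, where 7.45% and 8.14% of all genes tested were lower. Psmb10, an immunoproteasome subunit, Ly6e, a membrane protein, Tapbp, which loads MHC class I, and Shisa5 were lower in both comparisons, with log2 differences between -0.61 (Shisa5) and -1.10 (Psmb10) in Drd1-type neurons.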

How the data were processed

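Single-cell 3′ RNA libraries (10x Genomics kit version 2, per the labels) gave 1 deposited matrix of whole UMI counts per gene and cell. The authors made these counts with Cell Ranger (matrix header 3.0.0, per the file headers), on mm10 per the submitters' processing notes. The rule that called cells and the annotation release are not given in the sources used here. Barcode suffixes separate 3 libraries, which share 13 (1 with 2), 7 (1 with 3) and 22 (2 with 3) barcode sequences.

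Cells were kept if they had 300 or more genes and no more than 20% of UMIs from mitochondrial genes. Scrublet (scanpy 1.11.5) marked 57, 83 and 17 cells by its own threshold. The highest scores, 0.8% per 1000 cells, were removed instead (44, 296 and 28 cells). Each cell joined the class with the highest share of its marker genes detected, given at least 2 markers and a margin of 0.15. Drd1-type and Adora2a-type neurons needed 2 markers of their list (Drd1, Tac1, Pdyn, Isl1 and Chrm4, or Adora2a, Drd2, Penk, Gpr6 and Sp9) and more than of the other. Other neurons had fewer than 2 of each. These thresholds were set after the data were seen. A total of 1098 cells stayed ungated.

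Counts were summed per library and class (at least 10 cells) and tested with edgeR 4.0.16 (quasi-likelihood, robust, TMM, filterByExpr), with the library as block because sums of 1 library come from the same cells' suspension. P-values were adjusted by Benjamini-Hochberg over all genes. The 3 neuron classes were fitted together, as were neurons and 5 other classes. Only listed genes are reported. With the block, p-values measure how the differences between classes vary among these libraries, not the spread of levels between libraries. A SE is the log2 difference divided by the root of F. Alternatives were DESeq2 1.42.0, no block, no filter, each library left out, thinning to 1000 UMIs, a stricter gate, no doublet removal and only neurons with no construct UMI. On simulated counts for Drd1-type over Adora2a-type neurons (9852 genes), 69% of 2-fold and 94% of 4-fold changes were recovered. These rates are for genes high enough to be tested. In the real comparison only 19 of the 37 listed genes were. Recovery for the listed genes alone, at their own levels in neurons, was not tested.

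The 37 genes, the marker lists and the pathway lists were chosen with earlier results of these data known. Named genes are, per comparison, up to 10 with the largest difference, called at 0.05 and of 1 direction in all libraries, the 12 highest in neurons, and the receptor and interferon genes. Other called genes are named as such. The values of a single gene of the pathway lists are left out of the text. Gene positions are from GENCODE M21; 3 of the 37 genes overlap another on the same strand and 8 on the opposite strand. Usp18, Rtp4, Ifi27, Dhx58, Iigp1, Mx1, Zbp1 and Parp14 were not matched to a promoter.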

Additional observations from a re-analysis of the deposited data

How the results depend on the processing

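Each glial, immune and vascular count against neurons stayed within 1.5 times its value under all alternatives run. The summed levels moved by less than the spread between libraries after thinning and, for Drd1-type and Adora2a-type neurons, under the stricter gate. Thinning keeps the share of UMIs on average, so only the cells it dropped could move these levels. With 1 of 3 libraries left out, a mean cannot move by more than that spread, so those settings could not show a shift. Without Ifitm3, a setting added after the data were seen, the sums moved by more, to 5864 CPM in endothelial and 3506 CPM in mural cells. The neuron counts were less stable. For Drd1-type over Adora2a-type neurons (2 genes), edgeR without the replicate block called 0 (0 at an unadjusted p under 0.05), DESeq2 1, and only neurons with no construct UMI 0 (3 tested, 1 at an unadjusted p under 0.05); leaving out a library gave 1 to 3. For Drd1-type over other neurons (3 genes), no block gave 0 (1 unadjusted), no filter 5, DESeq2 1, thinning 0 (5 tested, 0 unadjusted) and leaving out a library 0 to 7 (7 without library 1, 0 without library 2, where the 3 genes were too low to be tested, 1 without library 3). For Adora2a-type over other neurons (7 genes), no block gave 0 (3 unadjusted), no filter 12, DESeq2 3, thinning 3 (5 tested) and leaving out a library 2 to 11 (2 without library 2, 11 without library 1). For construct-bearing over construct-free neurons (1 gene), no block gave 0 (0 unadjusted), no filter 0 (3 unadjusted), DESeq2 0 (1 unadjusted), thinning 0 (2 unadjusted) and leaving out a library 0 to 2 (2 without library 1). Fewer genes passed the filter after thinning, without library 2 and without construct-bearing neurons; the cause of the other changes was not tested. Without the block, the difference between libraries enters the spread. Of 413 values of named genes under the alternatives, 392 kept their call, 21 lost it and 0 changed direction. Most of these genes are from the glial, immune and vascular comparisons, and settings where a gene was not tested are not counted. Without the block 9 values lost their call, which were all the named calls among neurons. Isg15 between Drd1-type and Adora2a-type neurons lost its call only without the block and among construct-free neurons. Library 1 was shallow: 1 UMI in its Drd1-type neurons is worth more than 1 UMI elsewhere, and 3 counts there correspond to 12.4 CPM, against 0.672 CPM in library 2.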
